A study of Vitis vinifera with 6 samples.

Results

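The loci described here lie in the stretches of grapevine chromosomes 18 and 19 that hold the main clusters of terpene synthase genes. Within the windows they were taken by locus number alone, but the windows were set with earlier results of these data known. The first window runs from VIT_18s0001g04050 to VIT_18s0001g05490 and holds 122 probed loci. Both other windows lie on chromosome 19, where VIT_19s0014g02550 to VIT_19s0014g02590 holds 4 probed loci and VIT_19s0014g04800 to VIT_19s0014g04930 holds 12. Together they make 138 of the 34369 probes on the array other than controls, with 1 probe for each locus. Gene names are not attached to the loci in the scanner files, and the reference gene table used here matched none of them (0). Which of the 138 encode a terpene synthase, and which are other genes inside the windows, is therefore not known here, and no locus is given a gene name. Probe sequences, coordinates and the exon a probe lies in were not analysed here.

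Terpene synthases convert prenyl diphosphates into the carbon skeletons of terpenes. Monoterpene synthases in the plastid mostly use geranyl diphosphate, and sesquiterpene synthases in the cytosol use farnesyl diphosphate. The family is unusually large in grapevine and sits in tandem clusters, and its products give floral scent, muscat-type berry aroma and volatiles that leaves release after attack.

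Each of 6 arrays carried Cy3-labelled total RNA of fully expanded leaves of Vitis vinifera cultivar Syrah, clone BVRC12, grown in a greenhouse from plants raised out of anther callus. In 3 samples the genotype was labelled control and in 3 it was labelled CARPO overexpression. CARPO belongs to the NAC family of transcription factors, and the study concerns its role in the onset of ripening. The labels do not say which transgenic line each sample came from, which promoter drove the transgene, or whether controls carried an empty vector. The comparison asked which leaf transcripts differ between these plants. The labels speak of biological replicates without naming the plants, so p-values measure the spread between these samples.

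Signals are given below as log2 levels, which are the log2 of a spot's signal relative to the 75th percentile of signals on its own array. A level of 0 is thus that percentile, which was a signal of 668 to 1234 on the 6 arrays. By the mark of the scanner software, 68.4% to 74.5% of all probes on an array were well above background. The probe of VIT_08s0007g07670, the CARPO locus by knowledge of the study from outside the files, had signals of 12.4, 50.4 and 25.3 in control replicates 1, 2 and 3. In the overexpression samples they were 10.1, 15.1 and 271, so that only replicate 3 lay above the controls. The arrays are for that reason called labelled overexpression, and each direction below is that of the label. Control replicate 1 and labelled overexpression replicate 1 shared a first scan. A second scan held control replicates 2 and 3 with labelled overexpression replicate 2. Labelled overexpression replicate 3 was scanned alone and was also the only array on its slide, while all others shared a slide. That array also carried 2103 of the spots marked as outliers, against 15 to 607 on the others, and 11 of these were at the loci of the windows.

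The windows held both loci with strong leaf signal and loci with none above background. Of the 138 loci, 75 were well above background on all 6 arrays, 44 on no array and 19 on 1 to 5 arrays. The share seen on no array was 31.9%, where it was 18.2% of all probes. The 44 unseen loci had median signals of 1.70 to 5.56 on the 6 arrays, while the dimmest probe marked well above background had a signal between 7.53 and 23.4. No spot of the 138 was saturated (0). The number of loci seen was much the same on each array, from 80 in labelled overexpression replicate 3 to 89 in labelled overexpression replicate 1, with 81 to 85 in controls.

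Unseen and bright loci alternated along chromosome 18. The longest stretch seen on all arrays was 7 loci, VIT_18s0001g04880 to VIT_18s0001g04950, and the longest stretch seen on none was 3, VIT_18s0001g04220 to VIT_18s0001g04260. The alternation went along with the probe numbers of the array design, a split made after the values were seen. Probes of the locus series VIT_18s0001 fall into 2 runs of numbers, each rising with locus number, from 12733 to 12950 and from 13066 to 14302. Within the window, 37 of 53 loci of the lower run were well above background on no array (69.8%), against 4 of 69 of the higher run (5.8%). Outside the window the corresponding counts were 36 of 165 (21.8%) and 125 of 1168 (10.7%). What sets the runs apart is not stated in the files, and its part in this pattern was not tested.

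**Figure D1:**
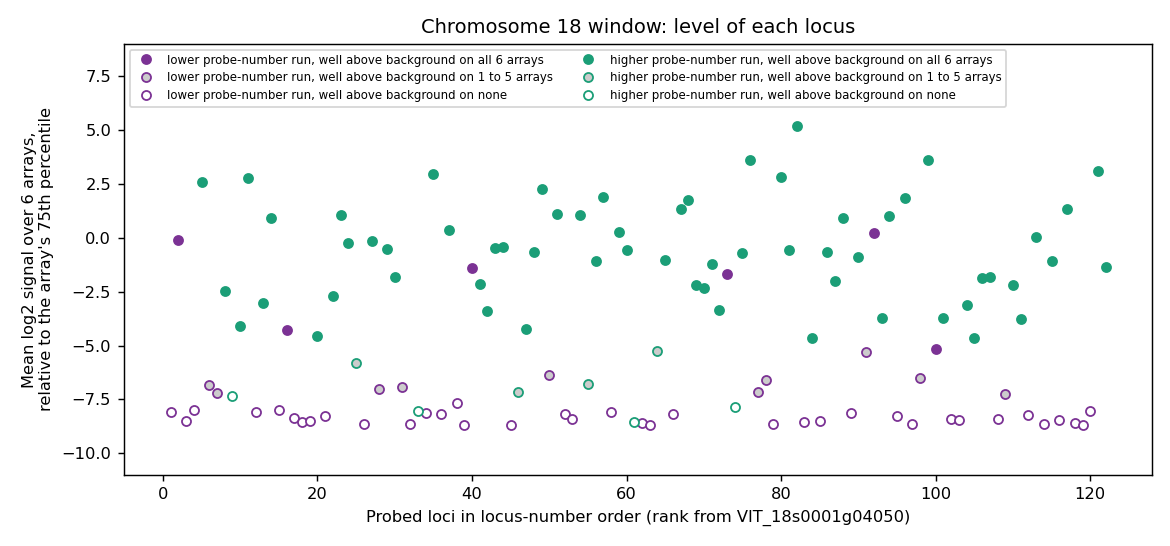
Mean log2 level over the 6 arrays (vertical axis, relative to each array's 75th percentile) of the 122 loci of the chromosome 18 window in locus-number order (horizontal axis). Purple points are the 53 loci of the lower probe-number run and green points the 69 of the higher run; filled points were well above background on all 6 arrays, grey on 1 to 5 and open on none, and 37 of the 53 purple points are open against 4 of the 69 green ones.

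Among loci seen on all arrays, the 5 with the highest mean levels were VIT_18s0001g05040 (5.43), VIT_18s0001g04980 (3.54), VIT_18s0001g05250 (3.53), VIT_18s0001g05480 (3.33) and VIT_18s0001g04520 (2.95). Spots marked as outliers were left out of these means. Signal also depends on the probe, so that these values give no order of transcript amounts. VIT_18s0001g05040 had log2 levels of 5.68, 5.59 and 5.65 in control replicates 1 to 3, and of 5.12, 5.10 and 4.07 in labelled overexpression replicates 1 to 3. Each labelled overexpression array lay below each control, although the spot of replicate 3 was marked as an outlier and was not used in the fit. The fitted difference in log2 level was -0.54 (SE 0.23, limma adjusted p 0.359). VIT_18s0001g04980 ranged from 3.29 to 3.86 over all arrays and could not be tested, since 3 of its spots were marked as outliers. VIT_18s0001g05250 ranged from 3.11 to 4.04, with a fitted difference of 0.32 (SE 0.38). VIT_18s0001g04520 lay between 2.97 and 3.68 on 5 arrays and at 1.23 in labelled overexpression replicate 3, which set the sign of its difference of -0.39 (SE 0.66). Without that array the difference was 0.37.

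At the other end, the locus that opens the chromosome 18 window, VIT_18s0001g04050, was well above background on no array, with signals of 1.75 to 6.45. Another 6 loci were well above background on a single array, and the 3 with the highest log2 level there are given. VIT_18s0001g04430 had a signal of 87.8 in labelled overexpression replicate 3 and of 2.41 to 6.81 elsewhere. VIT_18s0001g04110 had 70.0 in control replicate 2 and 3.04 to 8.29 elsewhere, and VIT_18s0001g05360 had 17.2 in control replicate 2 and 2.56 to 7.53 elsewhere. Each thus rested on 1 spot of 1 array.

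Testing required a signal well above background throughout 1 group or both (outlier spots not counted) and 2 or more usable spots per group. That held for 81 of the 138 loci, and the other 57 have no fitted value. None of the 81 (0) passed a limma adjusted p of 0.05, computed over all 23752 probes tested on the array, of which 0.08% passed. At an unadjusted p under 0.05 there were 10 of 81 (12.3%), 2 higher and 8 lower in labelled overexpression. The share of all tested probes was 15.1%, with 5.85% higher and 9.21% lower. Non-overlapping groups were found at 16 of the 71 loci with 6 usable spots (22.5%), 9 higher and 7 lower. The share of all such probes was 24.2%, with 10.5% higher and 13.7% lower. All of these shares lay near those of the whole array. The median fitted difference was 0.09 over the 81 loci and 0 over all tested probes, and 11 of the 81 differed at least 2-fold (13.6% against 17.7%). Replicates spread by a median SD of 0.26 in controls and 0.40 in labelled overexpression at these loci, beside 0.25 and 0.50 over all tested probes.

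**Figure D2:**
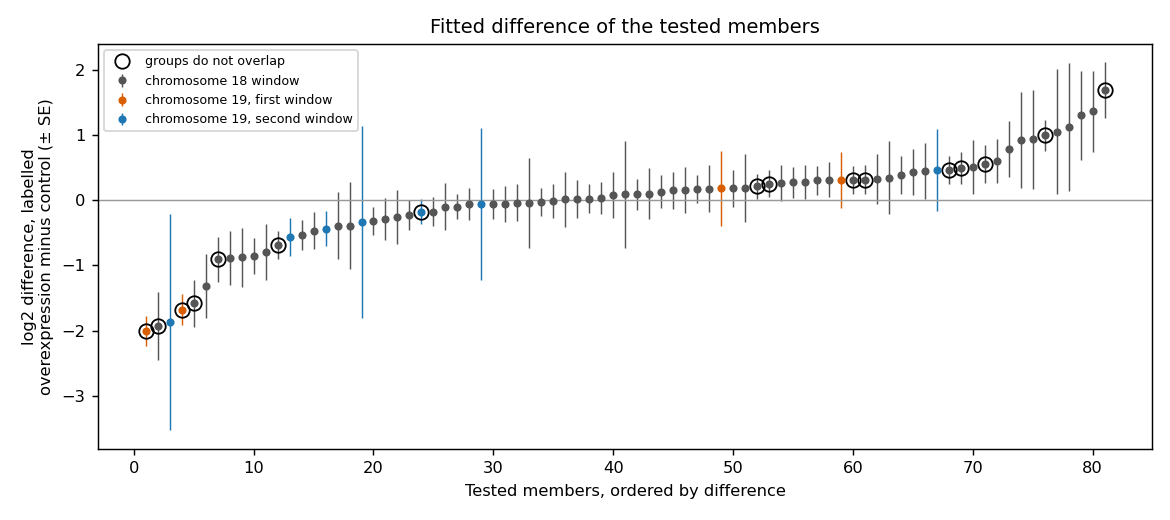
Fitted log2 difference, labelled overexpression minus control, with its SE (vertical axis), of the 81 tested loci ordered by size (horizontal axis). Grey points lie in the chromosome 18 window, orange and blue ones in the first and second windows of chromosome 19, and rings mark the 16 loci whose groups do not overlap; the differences run from -2.01 to 1.68.

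The 2 smallest adjusted p-values belonged to loci in the short window of chromosome 19. VIT_19s0014g02560 had log2 levels of 0.26, -0.21 and 0.06 in control replicates 1 to 3, and of -2.06, -1.77 and -2.08 in labelled overexpression replicates 1 to 3. The groups stood well apart, and the 3 labelled overexpression arrays lay close together. The difference was -2.01 (SE 0.23, limma adjusted p 0.0763), a 4.02-fold lower signal, and it was -2.32 within the first scan and -1.69 within the second. With array weights it was -1.87 (limma adjusted p 0.0394), which passed the threshold. VIT_19s0014g02590 had levels of -2.08, -2.60 and -2.31 in controls and of -4.01, -4.23 and -3.80 in labelled overexpression. Here too the groups did not overlap, and the difference was -1.68 (SE 0.24, limma adjusted p 0.0872), with -1.93 and -1.77 within the first and second scan. Under the main settings neither locus passed the threshold, while both did in the deposited processed table (limma adjusted p 0.00558 and 0.00654), whose column of labelled overexpression replicate 3 is not that array's own signal. With normexp background correction the differences were -1.35 and -0.64 (limma adjusted p 0.52 and 0.994). With the replicate block the limma adjusted p was 0.248 at both.

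The other loci of the same window showed another pattern at much dimmer signal. VIT_19s0014g02550 had levels of -5.85, -5.62 and -4.86 in controls and of -6.14, -5.51 and -4.12 in labelled overexpression. VIT_19s0014g02580, named after its values were seen to complete the window, had -5.50, -5.39 and -4.73 in controls and -5.50, -5.08 and -4.11 in labelled overexpression. At both the groups overlapped and labelled overexpression replicate 3 was the highest array. Their differences were 0.18 (SE 0.57) and 0.31 (SE 0.43). All 4 loci of the window were well above background on every array.

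On chromosome 18, the most negative fitted difference was at VIT_18s0001g05160. Its levels were -3.26, -3.00 and -2.07 in controls and -5.67, -4.12 and -4.32 in labelled overexpression. The groups did not overlap, and labelled overexpression replicate 1 was lowest. The difference was -1.93 (SE 0.52, limma adjusted p 0.186), or -2.41 and -1.59 within the first and second scan. With normexp background correction it was -0.5.

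The window closes with 2 adjacent loci that were both lower in labelled overexpression. VIT_18s0001g05490 had levels of -0.77, -0.87 and 0.00 in controls and of -2.64, -1.82 and -1.92 in labelled overexpression. The groups did not overlap, and the difference was -1.58 (SE 0.36, limma adjusted p 0.148). VIT_18s0001g05480 had 3.42, 3.56 and 4.10 in controls and 2.31, 3.28 and 1.89 in labelled overexpression, the last from a spot marked as an outlier and left out of the fit. All arrays of one label again lay on one side, with a difference of -0.89 (SE 0.41, limma adjusted p 0.394). At neither locus did a labelled overexpression array reach the lowest control.

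VIT_18s0001g05060 and VIT_18s0001g05380 also had large negative differences. VIT_18s0001g05060 had levels of -4.50, -3.80 and -3.66 in controls and of -6.11, -5.45 and -4.37 in labelled overexpression. Labelled overexpression replicate 3 lay above control replicate 1, so that the groups overlapped (difference -1.32, SE 0.49, limma adjusted p 0.294). VIT_18s0001g05380 had -3.44, -3.50 and -2.98 in controls and -4.45, -3.60 and -4.61 in labelled overexpression. The groups did not overlap, although labelled overexpression replicate 2 lay close to the controls (difference -0.91, SE 0.34, limma adjusted p 0.293). With normexp the differences of these loci were -0.19 and -0.08.

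The most positive fitted difference was at VIT_18s0001g04640, a dim probe with signals of 17.7, 40.9 and 28.9 in controls and of 52.1, 99.3 and 132 in labelled overexpression. As log2 levels these were -5.68, -4.32 and -5.16 against -3.68, -3.63 and -2.81, with no overlap. The difference was 1.68 (SE 0.43, limma adjusted p 0.172), or 2.0 and 1.11 within the first and second scan, and 0.6 with normexp. VIT_18s0001g05300 had a smaller difference with tighter controls. Its levels were -3.66, -3.53 and -3.59 in controls and -2.73, -2.85 and -2.23 in labelled overexpression, a difference of 0.99 (SE 0.24, limma adjusted p 0.159). These were the only 2 loci higher in labelled overexpression at an unadjusted p under 0.05 under the main settings.

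At VIT_18s0001g04690 the labelled overexpression arrays were well above background and the controls were not. Its signals were 13.1, 6.04 and 4.37 in controls and 11.2, 14.1 and 36.4 in labelled overexpression. In log2 levels the groups overlapped, and the locus was tested only because of the labelled overexpression arrays, so that its difference supports nothing further. With each control array raised to at least its dimmest signal well above background, the fold between group means was 1.72 under the main settings. The mark is not a signal cutoff, since the unmarked 13.1 of control replicate 1 exceeded the dimmest marked signal there, 12.9. The fold of 1.72 is therefore not a strict lower bound. Nor does it hold for each array. Labelled overexpression replicate 3 had a log2 level of -4.67, while replicate 2, at -6.45, lay below control replicate 1 at -6.11. The fitted difference of 1.36 was 0.68 with scan as a block and 0.37 with normexp. No locus was well above background in all controls and in no labelled overexpression array (0).

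The other 5 of the 8 most positive differences rested on groups that overlapped. VIT_18s0001g04800 had levels of 0.02, -1.86 and -1.83 in controls and of 0.94, -0.88 and 0.16 in labelled overexpression. In both groups the first replicate, from the first scan, was the highest (difference 1.30, SE 0.68, limma adjusted p 0.435). The difference was 1.92 without control replicate 1 and 0.94 with scan as a block. VIT_18s0001g05140 had -4.18, -6.71 and -6.72 in controls and -3.88, -6.43 and -3.93 in labelled overexpression (difference 1.12, SE 0.98). Control replicates 2 and 3 were not well above background. This locus too was tested only because of the labelled overexpression arrays, so that its difference supports nothing further. The difference was 0.29 with scan as a block, 0.72 with slide as a block and 0.47 with normexp. It was 1.97 when either control replicate 1 or labelled overexpression replicate 2 was left out. The arrays of the first scan were again high and those of the second low. Labelled overexpression replicate 3, scanned alone, was high as well. What part the scan had in this was not tested.

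At VIT_18s0001g04910, VIT_18s0001g04930 and VIT_18s0001g05030 labelled overexpression replicate 3 stood alone. VIT_18s0001g04910 had a level of 0.40 there and lay between -3.35 and -1.69 on the other arrays. VIT_18s0001g04930 had 0.92 there, against -2.07 to -1.24 elsewhere. VIT_18s0001g05030 had 1.59 there, against -1.68 to -0.55. The fitted differences were 1.05 (SE 0.96), 0.92 (SE 0.73) and 0.93 (SE 0.76). Without that array they were 0.02, 0.09 and 0.07.

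**Figure D3:**
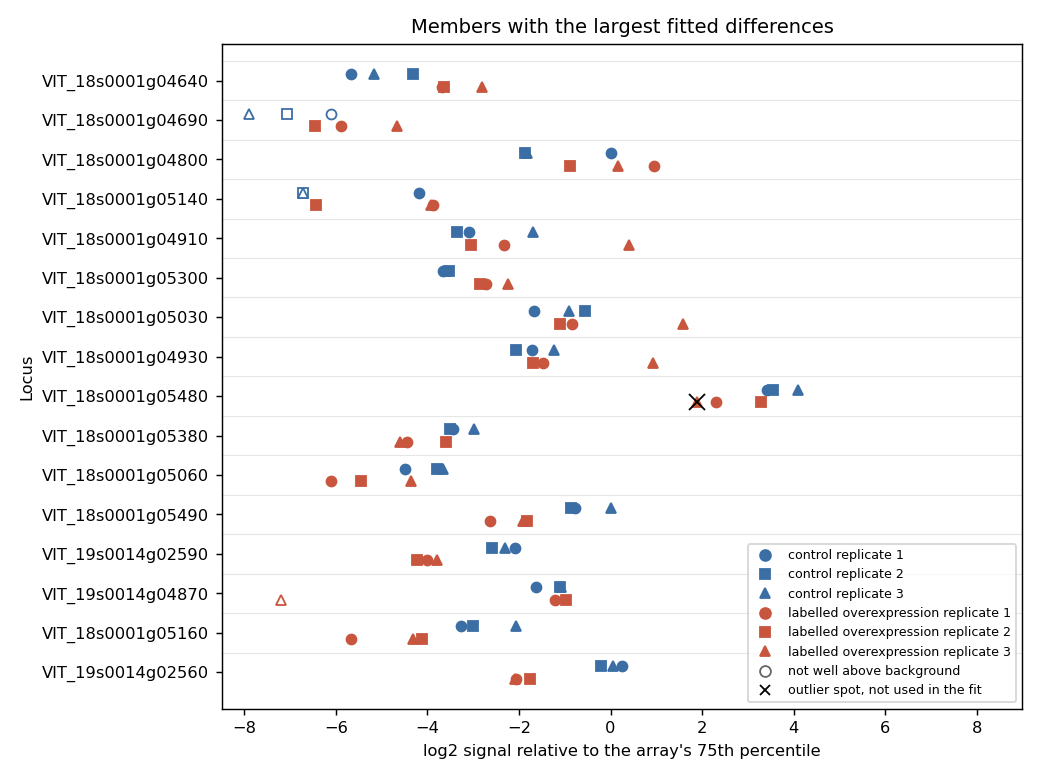
Log2 level on each array (horizontal axis, relative to the array's 75th percentile) of the 8 loci with the most positive and the 8 with the most negative fitted difference (vertical axis). Blue symbols are the 3 control arrays and red ones the 3 labelled overexpression arrays, open symbols were not well above background and a cross marks a spot not used in the fit; VIT_19s0014g02560 and VIT_19s0014g02590 show separate groups, while VIT_18s0001g04910, VIT_18s0001g04930 and VIT_18s0001g05030 show 1 high array.

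In the second window of chromosome 19 several loci varied widely within the control group. VIT_19s0014g04800, its first locus, had levels of -4.02, -1.57 and -6.02 in controls and of -3.03, -3.63 and -5.13 in labelled overexpression. Control replicate 2 was 10.9-fold above the mean of the other 2 controls, and the difference between groups was -0.06 (SE 1.16). VIT_19s0014g04930, its last locus, had -4.12, -2.33 and -4.83 in controls and -3.17, -3.18 and -3.56 in labelled overexpression, with control replicate 2 at 4.42-fold above the other controls (difference 0.46, SE 0.63).

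Another 3 loci of this window, picked out after their values were seen, were also highest in control replicate 2. VIT_19s0014g04810 had signals of 37.7, 290 and 11.9 in controls and of 83.6, 85.2 and 9.17 in labelled overexpression. VIT_19s0014g04850 had 3.25, 57.2 and 5.90 in controls and 11.1, 42.5 and 5.68 in labelled overexpression. VIT_19s0014g04920 had 12.4, 46.5 and 8.06 in controls and 13.2, 42.8 and 6.36 in labelled overexpression. As log2 levels, control replicate 2 was the highest array at each of these 5 loci, and control replicate 3 lay below it at each. Whether their probes share sequence was not tested. The gap was not shared by the whole window. At VIT_19s0014g04820 control replicate 2 was also the highest array, but all arrays lay between -1.14 and -0.77, and 3 loci were seen on none.

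VIT_19s0014g04870 differed from its neighbours on a single array. Its signals were 295, 383 and 492 in controls and 288 and 624 in labelled overexpression replicates 1 and 2, all well above background. In labelled overexpression replicate 3 the signal was 6.23, which was not well above background, and its spot there was not marked as an outlier. The log2 level was -7.21 on that array and -1.62 to -0.98 on the other 5. The fitted difference of -1.87 (SE 1.66, limma adjusted p 0.631) came from that array, and without it the difference was 0.17.

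**Figure D4:**
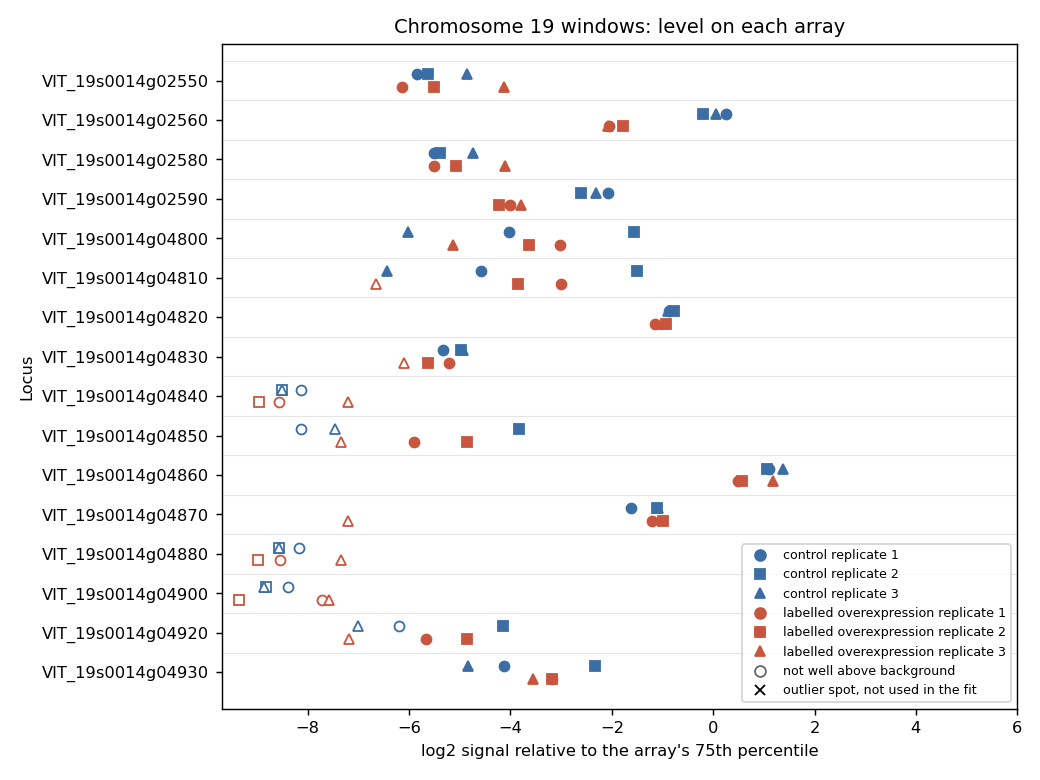
Log2 level on each array (horizontal axis, relative to the array's 75th percentile) of the 16 loci of both chromosome 19 windows (vertical axis, in locus-number order). Blue symbols are controls and red ones labelled overexpression, and open symbols were not well above background; VIT_19s0014g04870 has 1 open symbol at -7.21 apart from the other 5, and control replicate 2 (blue squares) is highest at VIT_19s0014g04800, VIT_19s0014g04810, VIT_19s0014g04850, VIT_19s0014g04920 and VIT_19s0014g04930.

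Single arrays that stood at least 2-fold above or below each of the other 5 were counted at the 94 loci seen on at least 1 array. Spots marked as outliers were kept in these counts and in the shares of all seen probes. Labelled overexpression replicate 3 stood above at 7 (7.45%) and below at 3 (3.19%), where the shares of all seen probes were 10.8% and 6.95%. Among these, its spots at VIT_18s0001g04890 (above) and VIT_18s0001g05040 (below) were marked as outliers. Control replicate 2 stood above at 4 loci (4.26%, against 0.718% of all seen probes), of which 3 lie in the second window of chromosome 19. No other array stood above at any locus (0). Of the 71 loci with 6 usable spots, 19 were highest in labelled overexpression replicate 3 (26.8%, against 29.1% of all such probes) and 14 were lowest there (19.7%, against 32.7%).

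Against other loci of the same name series, 2 of the windows had a larger share of loci seen on no array. On chromosome 18, 33.6% of the loci in the window were well above background on no array, against 12.1% of the 1333 other loci named VIT_18s0001. The lower probe-number run held 53 of the 122 loci in the window and 165 of the 1333 outside. In that run the shares were 69.8% and 21.8%, and in the higher run 5.8% and 10.7%. In the second window of chromosome 19, 3 of 12 loci were seen on no array, and in the first window 0 of 4. The share was 12.8% of the 477 other loci named VIT_19s0014. At 39 loci of the stilbene synthase cluster, VIT_16s0100g00750 to VIT_16s0100g01200, another tandem family, the share seen on no array was 2.56%. However, 21 of these 39 were seen on 1 to 5 arrays only. The share well above background on all 6 arrays was 43.6% there and 54.9% in the chromosome 18 window. An unadjusted limma p under 0.05 was found at 11.4% of the 70 tested loci of the chromosome 18 window and at 18.5% of the 1031 tested loci beside it. The share of all tested probes was 15.1%. By run it was 12.9% inside against 19.6% outside in the higher run, and 0 of 8 against 8.82% in the lower. In the chromosome 19 windows it was 2 of 4 and 0 of 7, against 13.9% of the tested loci beside them. These shares are descriptions, and the differences between them were not tested.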

How the data were processed

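Per the file headers, spot intensity (processed signal) and 0 or 1 marks for each spot came from Agilent Feature Extraction 10.5.1.1. The deposited processed table holds linear intensity values whose scaling is not given in the sources used here. It was used as an alternative only. Loci were taken by name from the scanner files. Processed signals were divided by their array's 75th percentile, taken to log2 and fitted without covariates (limma 3.58.1, functions lmFit and eBayes, R 4.3.3) on all 23752 probes tested, with Benjamini-Hochberg adjustment over all of them. Spots marked as outliers were treated as missing, except in the counts of loci seen and of single arrays that stood apart. Simulated arrays with independent noise and known changes served to check the fit. They held no effect of scan, slide or a single deviating array, and so do not bear on these. For the fold of group means at VIT_18s0001g04690, each control array entered with its dimmest signal well above background, or with the probe's signal where that was higher. The number of arrays limits the precision.

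Named loci were those past the threshold, the 8 most positive and 8 most negative differences, the 5 highest mean levels, loci seen in 1 group only, the 3 with the highest log2 level among those seen on 1 array, and the ends of each window. The windows, this rule and the alternatives were chosen with earlier results of these data known. Pathway and leaf marker lists were not run, because the loci carry no gene names here. The first scan, the second scan and the slide as recorded were batches. Deviations from the group means correlated across probes at 0.253, 0.0499 and -0.0149 between arrays of equal number. Between arrays of unequal number the values ran from -0.329 to 0.283. Numbers were not taken as pairs in the main fit. These values cannot exclude pairing, since deviations from a group mean depend on each other. Normexp used the median spot signal. The alternatives are given in the closing section.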

Additional observations from a re-analysis of the deposited data

How the results depend on the processing

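No locus of the windows passed the adjusted threshold (0 of those tested, limma), except that 1 did with array weights (VIT_19s0014g02560, where 0.96% of all probes passed) and 10 (3 higher, 7 lower, where 13.5% of all probes passed) in the deposited processed table. In that table the column of labelled overexpression replicate 3 equalled, to within 0.1% and up to 1 common factor, the average scanner signal of replicates 1 and 2 of that label (100% of 23065 probes), and without that column 0 passed. At an unadjusted p under 0.05 the count of 10 became 2 with normexp background correction (6.47% of all tested probes), 20 with scan as a block (21.2% of all) and 22 in the processed table (32% of all). The count of loci whose groups do not overlap, 16, became 6 with normexp (12.3% of all), 29 in the processed table and 29 with that column dropped (40.4% of all in both). With 1 array left out, 0 passed, 7 to 13 had an unadjusted p under 0.05 (8.86% to 20.6% of all), and 18 to 30 were without overlap (29.2% to 41.3% of all), with fewer arrays to overlap by construction. Normexp moved the median difference of all tested probes to 0.13 and that of the loci to 0.14. The median over the loci was 0.01 to 0.15 in every setting run. With the replicate block 0 passed and 8 had an unadjusted p under 0.05 (13% of all).

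The differences of VIT_18s0001g04520 turned to 0.21 with array weights, 0.42 with scan as a block, 0.37 with slide as a block, 0.39 in the processed table and 0.37 without its replicate 3 column. VIT_19s0014g02550 turned to -0.17, -0.28 and -0.39 with weights, scan and slide. VIT_19s0014g04930 turned to -0.19 with weights. VIT_19s0014g04800 turned to 0.16 with normexp, 0.52 with scan, 0.54 with slide, 0.52 in the table and 0.54 without that column. VIT_19s0014g04870 turned to 0.06 with normexp, 0.23 with scan, 0.17 with slide, 0.18 in the table and 0.17 without that column. VIT_18s0001g04910 came to 0 in the table. The CARPO probe, 0.47, turned to -1.14 with weights, -0.88 with scan and -1.0 with slide. With 1 array left out, ranges that crossed 0 were -0.86 to 0.37 for VIT_18s0001g04520, -0.39 to 0.62 for VIT_19s0014g02550, -1.13 to 1.09 for VIT_19s0014g04800, -2.95 to 0.17 for VIT_19s0014g04870, -0.08 to 1.17 for VIT_19s0014g04930 and -1.0 to 1.29 for the CARPO probe. The cause of these changes was not tested, save that with scan or slide as a block labelled overexpression replicate 3 no longer enters the difference. The other tested loci chosen by the naming rule kept their direction wherever fitted; those named after their values were seen were not followed through all settings. Dim probes limit what can be read, since 57 of the 138 loci had no fitted value.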
